A study of Mus musculus with 6 samples.

Results

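NADPH oxidases are membrane enzymes that pass electrons from NADPH to oxygen and so make superoxide or hydrogen peroxide. In phagocytes the catalytic subunit Cybb (also called Nox2) sits in the membrane with Cyba, and becomes active when cytosolic subunits such as Ncf1 and Ncf4 and a Rac GTPase join it. Nox4, the other catalytic subunit found in the heart, pairs with Cyba as well but needs none of the cytosolic subunits, so that its output follows its amount closely. Both enzymes are known from work on pressure-overloaded hearts, Cybb mainly in infiltrating and resident immune cells and in vessels, Nox4 in cardiomyocytes, fibroblasts and endothelium.

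The mRNA of 7 subunit genes was followed here, namely Nox4, Cybb, Cyba, Ncf1, Ncf4, Rac1 and Rac2. They were found by gene name among the 54532 genes of the count table, and all 7 were among the 14774 genes with enough counts to be tested. Left ventricles of 3 TG and 3 NTG hearts were taken 4 weeks after aortic banding (AB), in which a ligature narrows the aorta and loads the ventricle, and poly-A selected RNA of each was sequenced as 1 library. The study's methods give male mice aged 8 to 10 weeks at surgery. TG mice (genotype label HINT2CTG-Myh6Cre) combine a CAG-HINT2 transgene with Cre driven by Myh6, a cardiomyocyte gene, and received tamoxifen at 5 mg/kg/d for 7 days. The design thus raises HINT2, a mitochondrial nucleotide hydrolase, in cardiomyocytes and leaves the other cells of the ventricle without the transgene's product. NTG mice are labelled C57BL/6J. Whether they carried Cre or received tamoxifen is not given in the sources used here, so the effects of HINT2, Cre and tamoxifen cannot be told apart, and no sham-operated hearts were analysed here.

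The libraries held 14863568 to 17581220 counts on genes. Counts on Hint2 itself were 793 in TG 1, 828 in TG 2 and 859 in TG 3, against 545 in NTG 2, 559 in NTG 3 and 12 in the library labelled NTG 1, which stands apart from the other NTG libraries. By a chi-square of counts per gene tested, NTG 1 also differed less from each TG library (17.8 to 28.1) than from NTG 3 (33.1) or NTG 2 (71.2). This measure did not single out NTG 1, since TG 2 differed less from NTG 1 (17.8) and NTG 3 (28.5) than from TG 1 (32) or TG 3 (36.8). Cardiomyocyte markers summed to 27233 to 46400 CPM in NTG and 44669 to 54080 CPM in TG, as the labelled tissue should show, with 0 of the 10 markers missing. NTG 2 stood apart in its immune cell markers. The 16 macrophage and monocyte markers summed to 2331 CPM there and to 920 to 1343 CPM in the other 5 libraries, and the 10 neutrophil markers to 276 CPM against 8.98 to 41.2 CPM. CPM divides each count by the library's depth, here corrected by TMM for differences in composition. The fold changes of the subunits are therefore also given without these libraries, and those of other genes where leaving out NTG 1 or NTG 2 turned the sign or moved the value by over 1.5 times.

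Nox4 mRNA was about 4 times as high in NTG as in TG hearts, and it was the subunit with the largest difference. The 4 subunits of the phagocyte enzyme, Cybb, Ncf1, Ncf4 and Rac2, were 1.45 to 1.66 times as high in NTG by the fit, and this difference came with a single heart, NTG 2, except in part for Ncf1. The 2 widely expressed partners differed little, with Cyba at a log2 fold change (TG − NTG) of 0.04 and Rac1 at −0.13. A subunit was called where its log2 fold change exceeded 0.5 in size with a Benjamini-Hochberg adjusted p (all genes) under 0.05. The quasi-likelihood test of edgeR called 0 of the 7, and 0% of all genes in either direction. At an unadjusted p under 0.05, 1 subunit (Nox4) was lower in TG and 0 were higher, beside 9.76% and 8.83% of all genes tested. DESeq2 and edgeR's likelihood-ratio test each called Nox4 and no other subunit, limma-voom called 0, and DESeq2 called 2.4% of all genes lower and 1.54% higher. Over the 7 subunits the median log2 fold change was −0.61, beside −0.0081 over all genes tested, and it was −0.021 without NTG 2.

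**Figure D1:**
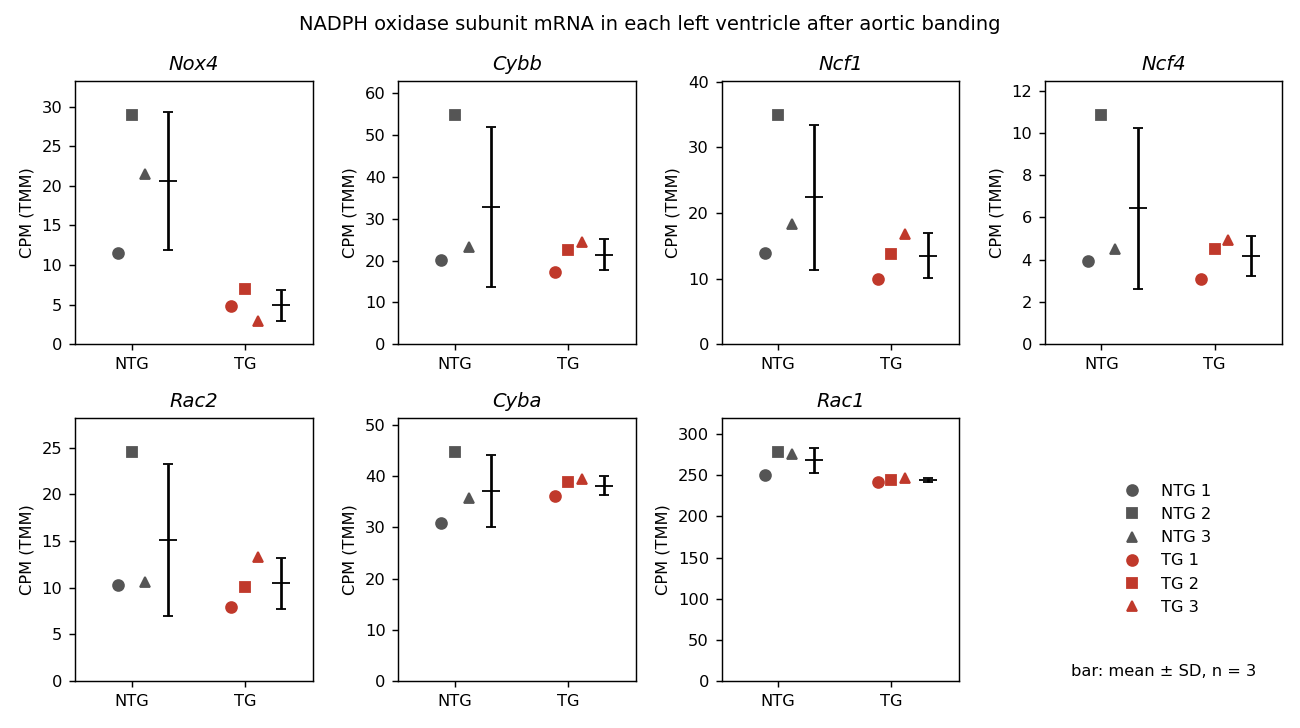
Level of the 7 NADPH oxidase subunits in each heart, in CPM with TMM scaling, by group, with points for single hearts (shape gives the replicate) and the mean with its SD (n = 3) to the right of each group. For Nox4 the TG hearts lie at 2.96 to 6.94 CPM, below the NTG hearts at 11.5 to 28.9 CPM, while Cybb, Ncf1, Ncf4 and Rac2 have 1 high point, NTG 2.

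Nox4 (ENSMUSG00000030562) occupies bases 87246096 to 87398710 of chromosome 7 (GRCm38, plus strand), where no other annotated gene overlaps it. Its level was 4.83 CPM in TG 1, 6.94 in TG 2 and 2.96 in TG 3, from 67, 122 and 48 counts. It was 11.5 CPM in NTG 1, 28.9 in NTG 2 and 21.5 in NTG 3, from 169, 544 and 372 counts. Every TG heart thus lay below every NTG heart, and NTG 1, the library with few Hint2 counts, was the NTG heart nearest to TG. The mean was 4.91 ± 1.99 CPM (SD, n = 3) in TG and 20.6 ± 8.71 CPM (SD, n = 3) in NTG, with a log2 fold change of −2.07 (standard error 0.41, unadjusted p = 0.00152, edgeR adjusted p = 0.196). This adjusted p was the smallest that any gene reached, but it was a tied value that many genes shared, also genes with a larger unadjusted p. A smaller unadjusted p than that of Nox4 was reached by 86 of the 14774 genes. An exact permutation test of the 6 levels gave p = 0.1 (two-sided), the smallest that 3 hearts against 3 allow.

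The direction for Nox4 did not hang on 1 heart. With each library left out in turn, the log2 fold change ran from −2.42 to −1.75, and without NTG 2 it was −1.75. The call did depend on the tool and on NTG 1. The adjusted p was 6.05e-05 with DESeq2, which also called Nox4 in each of its 6 fits with 1 library left out. Those fits called 67 to 877 of all genes lower and 29 to 896 higher. With edgeR without NTG 1 the adjusted p of Nox4 was 0.0221, and 2.85% of genes were called lower and 2.67% higher.

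Cybb (ENSMUSG00000015340, chromosome X, 9435252 to 9487771, minus strand) encodes the catalytic subunit of the phagocyte oxidase. Its level was 20.2 CPM in NTG 1, 54.7 in NTG 2 and 23.2 in NTG 3, and 17.2, 22.6 and 24.4 CPM in the TG hearts in the same order. The groups overlapped, and NTG 2 was 2.24 times the next highest heart, which was a TG heart. With all hearts the fitted log2 fold change was −0.61 ± 0.39 (standard error, edgeR adjusted p = 0.419), and it was −0.87 without NTG 1, and −0.021 (adjusted p = 0.974) without NTG 2.

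The cytosolic subunits had the shape of Cybb. Ncf1 (ENSMUSG00000015950, p47phox, chromosome 5, 134220053 to 134229625, minus strand), which organizes the cytosolic complex and carries it to the membrane, was at 13.9, 34.9 and 18.4 CPM in NTG 1 to NTG 3 and at 9.95, 13.8 and 16.8 CPM in TG 1 to TG 3. NTG 2 was again the high heart and the groups overlapped. Its log2 fold change of −0.73 ± 0.36 (standard error, edgeR adjusted p = 0.319) was the largest of the phagocyte subunits, and was −0.26 without NTG 2 and −0.98 without NTG 1. DESeq2 called Ncf1 only in the fit without NTG 1 (log2 fold change −0.97, adjusted p = 0.0274), where it called 5.79% of all genes lower and 5.92% higher, and the other DESeq2 fits did not call it. Ncf4 (ENSMUSG00000071715, p40phox, chromosome 15, 78244801 to 78262580, plus strand), which binds a membrane lipid of the phagosome, was the least counted subunit in each library but TG 3, with 43 to 204 counts per library. It stood at 3.96, 10.8 and 4.51 CPM in NTG 1 to NTG 3 and at 3.10, 4.49 and 4.94 CPM in TG 1 to TG 3. Here the highest TG heart was above 2 of the 3 NTG hearts. The log2 fold change was −0.63 ± 0.41 (standard error, edgeR adjusted p = 0.426) and −0.018 without NTG 2, but −0.88 without NTG 1.

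Of the Rac GTPases, which switch the complex on, Rac2 is made mainly in blood cells and Rac1 in nearly all cells. Rac2 (ENSMUSG00000033220, chromosome 15, 78559167 to 78572783, minus strand) was at 10.3, 24.5 and 10.6 CPM in NTG 1 to NTG 3 and at 7.93, 10.1 and 13.3 CPM in TG 1 to TG 3. Its log2 fold change of −0.54 ± 0.38 (standard error, edgeR adjusted p = 0.465) became 0.0034 without NTG 2, so that its sign turned with that heart, and −0.75 without NTG 1. Rac1 (ENSMUSG00000001847, chromosome 5, 143503634 to 143528036, minus strand) was at 250, 278 and 276 CPM in NTG 1 to NTG 3 and at 242, 245 and 246 CPM in TG 1 to TG 3. The TG hearts lay within a narrow band under all NTG hearts. Nox4 and Rac1 were the 2 subunits of 7 with every TG heart below every NTG heart, which held for 12.3% of all genes tested, while 0 subunits had every TG heart above, as 11.2% of genes did. For Rac1 the difference was small, with 244 ± 2.02 CPM in TG and 268 ± 15.4 CPM in NTG (SD, n = 3) and a log2 fold change of −0.13 ± 0.098 (standard error, edgeR adjusted p = 0.474), or −0.18 without NTG 1 and −0.11 without NTG 2.

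Cyba (ENSMUSG00000006519, p22phox, chromosome 8, 122424776 to 122432930, minus strand), the membrane partner that both Cybb and Nox4 need, was at 30.9, 44.7 and 35.8 CPM in NTG 1 to NTG 3 and at 36.1, 38.9 and 39.4 CPM in TG 1 to TG 3. The TG hearts lay inside the range of the NTG hearts. The log2 fold change was 0.04 ± 0.14 (standard error, edgeR adjusted p = 0.899), −0.05 with scaling by library size alone, −0.079 without NTG 1 and 0.19 without NTG 2. Cyba, Ncf1 and Rac1 overlap genes of the opposite strand, and the library protocol names no step that marks strand. Gm20388, across Cyba, had 0 counts, Gtf2ird2, across the end of Ncf1, had 85 to 135, and Daglb, across the end of Rac1, had 172 to 357.

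**Figure D2:**
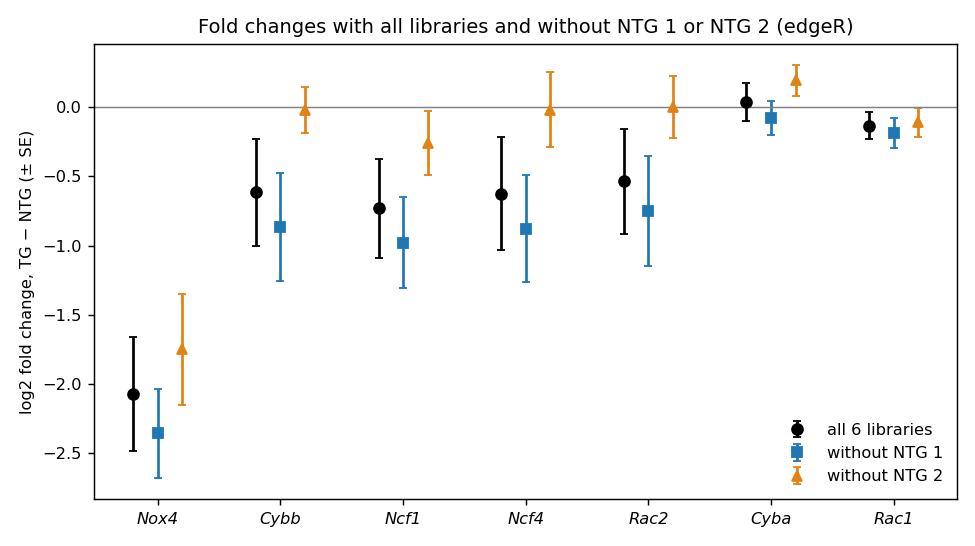
Log2 fold change (TG − NTG) of each subunit with its standard error from edgeR, with all 6 libraries (black circles), without NTG 1 (blue squares) and without NTG 2 (orange triangles). Nox4 stays between −2.36 and −1.75 in these fits, while Cybb, Ncf4 and Rac2 come to −0.021, −0.018 and 0.0034 without NTG 2.

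All 7 subunits had their highest level in NTG 2, as did 27.1% of all genes tested. Levels per length show how the subunits stand to each other. On the RPKM scale (CPM per kilobase of the gene model), Rac1 was highest at 53.9 to 61.9 and Cyba next at 29.7 to 43.0, and the ranges of these subunits over the 6 hearts did not meet each other or any other. Ncf1, Cybb and Rac2 followed with overlapping ranges of 2.72 to 9.52, 2.96 to 9.42 and 2.56 to 7.91 RPKM. Ncf4 had 1.54 to 5.36 RPKM. Nox4 was lowest in TG, at 0.580 ± 0.235 RPKM (SD, n = 3), and in NTG, at 2.44 ± 1.03 RPKM (SD, n = 3), it did not differ from Ncf4 at 3.19 ± 1.89 RPKM beyond the spread. Cyba mRNA was therefore well above the sum of its possible partners in every heart. As a ratio of RPKM, Cybb to Cyba was 0.0852 to 0.111 in TG hearts and 0.116 to 0.219 in NTG hearts, and Nox4 to Cyba was 0.00921 to 0.0218 in TG and 0.0459 to 0.0792 in NTG. Ncf4 to Cybb stayed between 0.519 and 0.582 over the 6 hearts, including NTG 2 at 0.569, and Rac2 to Cybb between 0.837 and 1.02. Nox4 to Cybb ran from 0.0833 to 0.636, with the TG hearts at 0.0833 to 0.210 and the NTG hearts at 0.362 to 0.636.

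**Figure D3:**
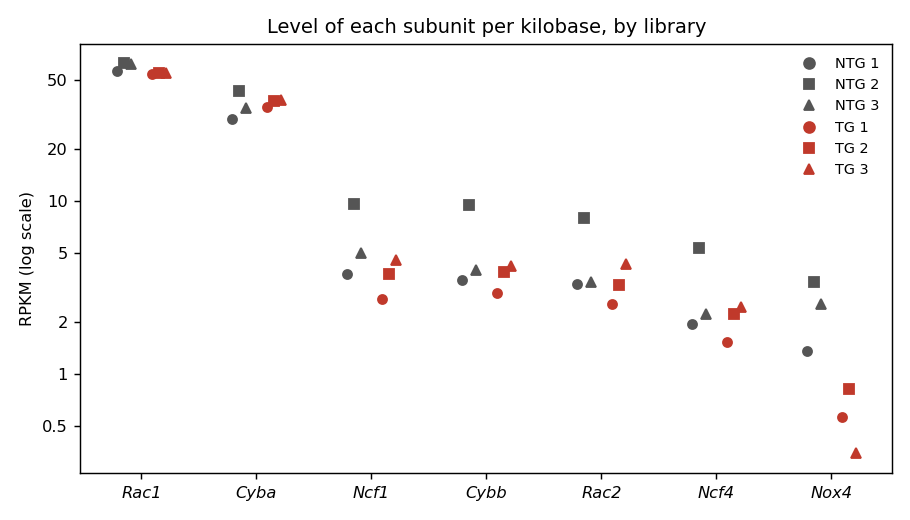
Level of each subunit per kilobase of gene model (RPKM, log axis) in each heart, NTG in grey at the left and TG in red at the right of each gene. Rac1 and Cyba lie above all other subunits in every heart, and Nox4 is lowest in the TG hearts, at 0.350 to 0.819 RPKM.

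The phagocyte subunits were next set beside markers of the cells that could carry them, since fewer cells of a type and less RNA per cell cannot be told apart in bulk tissue. Of 16 macrophage and monocyte markers, 15 were lower in TG by the fit, beside 51.3% of all genes tested, and 15 were highest in NTG 2. Their median log2 fold change was −0.56, and −0.15 without NTG 2. Csf1r, the receptor for the macrophage growth factor, and Mrc1, a mannose receptor of resident macrophages, had the smallest p, with log2 fold changes of −0.59 and −0.78 (adjusted p = 0.221 for both, edgeR), or −0.32 and −0.41 without NTG 2. Per 1000 CPM of these summed markers, Cybb was at 16.3, 23.5 and 17.7 in NTG 1 to NTG 3 and at 18.7, 19.6 and 18.2 in TG 1 to TG 3. The highest heart was thus 1.44 times the lowest, against 54.7 to 17.2 CPM without this scaling. Ncf1, Ncf4 and Rac2 behaved alike, with the highest heart 1.38, 1.45 and 1.305 times the lowest. Neutrophil markers moved with NTG 2 more steeply. S100a9, a calprotectin subunit of neutrophils, was at 2.66, 109 and 15.04 CPM in NTG 1 to NTG 3 and at 1.82 to 5.06 CPM in TG, and Retnlg at 0.205, 20.4 and 2.49 CPM against 0.0569 to 0.741 CPM. Of the 10 neutrophil markers 5 were tested and all 5 were highest in NTG 2. The 5 that were not tested reached at most 231 (Ngp), 148 (Ltf), 37 (Camp), 17 (Ly6g) and 1 (Mpo) counts. The part of neutrophils and macrophages in the levels of these subunits was not tested.

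The summed macrophage markers put the hearts in the order of Nox4 except for TG 3. That heart was lowest in Nox4, but its 1343 CPM of these markers were exceeded only in NTG 2. Per 1000 CPM of the macrophage markers Nox4 was at 9.31, 12.4 and 16.4 in NTG 1 to NTG 3 and at 5.25, 6.00 and 2.21 in TG 1 to TG 3, with no overlap of the groups. On this scale the groups did not overlap for Cyba either, there with TG above NTG. The sum of the fibroblast markers put the 6 hearts in the same order as Nox4 did, namely TG 3, TG 1, TG 2, NTG 1, NTG 3 and NTG 2 from low to high. Those 9 markers summed to 2486 to 4160 CPM in TG and 4882 to 11050 CPM in NTG, and all 9 were lower in TG by the fit, with a median log2 fold change of −0.65. Among them Dcn, a collagen-binding proteoglycan, had a log2 fold change of −0.65 and Postn, a matrix protein of activated fibroblasts, one of −2.54 (adjusted p = 0.196 for both with edgeR, and 0.00934 and 0.0285 with DESeq2). Per 1000 CPM of the fibroblast markers Nox4 was at 2.36, 2.61 and 3.12 in NTG 1 to NTG 3 and at 1.75, 1.67 and 1.19 in TG 1 to TG 3. On this scale the groups still did not overlap, at 2.70 ± 0.383 in NTG and 1.54 ± 0.303 in TG (SD, n = 3). This was not particular to Nox4, since the groups did not overlap on this scale for any other subunit either, there with TG above NTG. A few matrix genes decided that sum, since Postn and the collagens Col1a1, Col1a2 and Col3a1 made up 48.3% to 80.2% of it. Col1a1, Col1a2 and Col3a1 had log2 fold changes of −1.12, −1.18 and −1.45, or −0.73, −0.79 and −0.94 without NTG 2. The log2 fold changes of the other 5 markers were −0.65 for Dcn, −0.39 for Pdgfra, −0.29 for Lum, −0.20 for Dpt and −0.05 for Tcf21, and in the same order −0.57, −0.25, −0.26, −0.095 and 0.16 without NTG 2. Without NTG 1 Tcf21 had −0.18. In a split made after the values were seen, the other 5 markers summed to 1169 CPM in TG 1 and 1286 CPM in TG 3, the reverse of their order by Nox4. Per 1000 CPM of those 5, Nox4 was at 2.30 to 4.41 in TG and 6.57 to 13.2 in NTG. Per 1000 CPM of Postn and the collagens it was at 2.47 to 3.05 in TG and 3.26 to 4.34 in NTG. The groups did not overlap on either scale and lay closer together on the second. The cardiomyocyte markers ran the other way, with 10 of 10 higher in TG by the fit and a median of 0.45, or 0.24 without NTG 2, led by Myl2 and Tnni3, a myosin light chain and a troponin, at 0.59 and 0.61. The part of cell composition in the level of Nox4 was not tested.

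**Figure D4:**
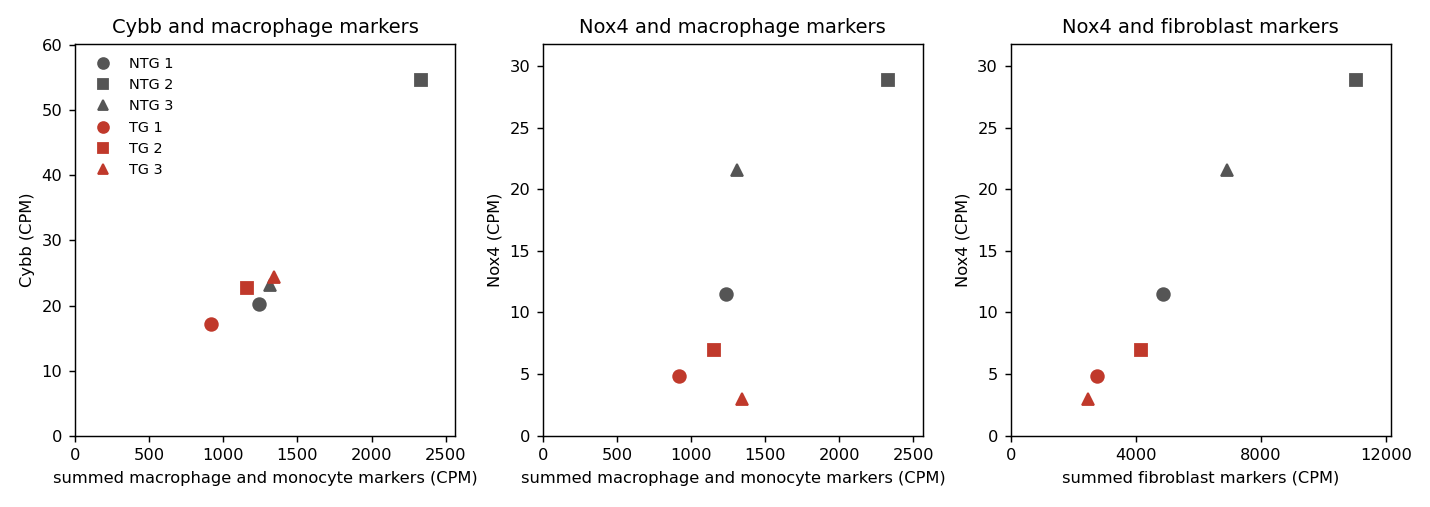
Cybb against the summed macrophage and monocyte markers (left), and Nox4 against the same markers (middle) and against the summed fibroblast markers (right), all in CPM, with 1 point per heart. Cybb lies at 16.3 to 23.5 per 1000 CPM of macrophage markers in all hearts, whereas NTG 3 and TG 3, with 1312 and 1343 CPM of those markers, have 21.5 and 2.96 CPM of Nox4.

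The genes most like each catalytic subunit, by Pearson's r of log2 CPM over the 6 hearts, also differed. For Nox4 they were Mmp23 (r = 0.996), a membrane-bound metalloproteinase, Pes1 (r = 0.996) and Snx6 (r = 0.995). Mmp23 was at 11.4 to 16.1 CPM in TG and 20.2 to 31.7 CPM in NTG, with a log2 fold change of −0.95. For Cybb they were its own partner Ncf4 (r = 0.997), the actin-binding Cotl1 (r = 0.997) and Unc93b1 (r = 0.994), which escorts Toll-like receptors to endosomes. Rac2 and Ncf1 followed Cybb at r = 0.979 and 0.965, whereas Nox4 and Cybb had r = 0.613. With 6 points, 410 genes tested reached an r over 0.95 with Nox4 and 131 with Cybb. The weight of single hearts in these correlations was not tested.

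The promoters of the genes that carry these 2 patterns are shown for their bases. RefSeq (GRCm38.p6) gave starts for 4 of the 7 subunits, and the 250 bases before the start were searched on both strands for GAGGAA, as bound by the myeloid factor PU.1, for TTTC followed after any 2 bases by TTTC, as bound by interferon regulatory factors, and for TGACTCA, as bound by AP-1. In the windows of the subunits no match overlapped another. The motifs were found in 23.3%, 2.98% and 4.46% of 32851 promoters of that length. The windows below are from chrX:9469325-9469574 on the minus strand for Cybb, chr5:134229626-134229875 on the minus strand for Ncf1 and chr7:87246399-87246648 on the plus strand for Nox4, each 5′ to 3′ and ending at the base before the RefSeq start. For Ncf1 that start is the start of the gene in the count table, whereas for Nox4 and Cybb it lies 553 and 18447 bases inside the gene as the table gives it, so these windows are within the genes' printed spans. Capitals mark matches to the interferon regulatory factor motif.
Cybb: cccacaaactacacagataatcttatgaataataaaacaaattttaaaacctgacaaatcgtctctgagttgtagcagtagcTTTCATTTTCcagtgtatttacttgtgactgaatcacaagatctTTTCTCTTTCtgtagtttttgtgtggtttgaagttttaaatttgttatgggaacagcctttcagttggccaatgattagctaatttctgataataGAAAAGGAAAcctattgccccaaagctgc
Ncf1: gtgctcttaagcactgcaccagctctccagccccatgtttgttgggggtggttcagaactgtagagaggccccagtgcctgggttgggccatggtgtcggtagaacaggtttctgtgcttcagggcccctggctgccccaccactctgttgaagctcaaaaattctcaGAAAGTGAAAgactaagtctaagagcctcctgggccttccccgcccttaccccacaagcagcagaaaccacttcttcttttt
Nox4: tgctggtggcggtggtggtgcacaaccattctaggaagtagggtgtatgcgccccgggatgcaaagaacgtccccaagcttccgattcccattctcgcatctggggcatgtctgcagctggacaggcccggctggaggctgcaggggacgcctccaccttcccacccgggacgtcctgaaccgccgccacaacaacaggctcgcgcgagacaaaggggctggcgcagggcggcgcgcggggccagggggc
Cybb held 3 matches, beginning 168 and 124 bases before the start on the forward strand and 29 bases before it on the reverse strand, and Ncf1 held 1 on the reverse strand, beginning 82 bases before the start. No match to any of the 3 motifs was in the window of Nox4 or in that of Cyba. The windows also differed in composition, with 34% G and C bases for Cybb, 54.4% for Ncf1 and 67.2% for Nox4. Such matches describe the sequence and show no binding.

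Of the other catalytic subunits, Nox3 had 0 counts in each library, which allows up to 3 counts of the total, and Nox1 had at most 5. Duox1 and Duox2, the dual oxidases, were tested at 20 to 44 and 10 to 20 counts, with log2 fold changes of −0.25 and −0.0089 (adjusted p = 0.721 and 0.991, edgeR). Duox1 had −0.41 without NTG 1, and Duox2 had 0.088 without NTG 2 and 0.044 without NTG 1. So Nox4 and Cybb were the most counted catalytic subunits in these ventricles. Of 10 further partner genes, 7 were tested, 5 were lower in TG by the fit and 0 were called. Poldip2, a protein reported to bind Nox4 with Cyba, was at 83.5 to 109 CPM in NTG and 110 to 128 CPM in TG, the opposite order to Nox4, with a log2 fold change of 0.27 (unadjusted p = 0.0599, adjusted p = 0.286, edgeR). Sh3pxd2b, an organizer protein of podosomes, had a log2 fold change of −0.43 (adjusted p = 0.304, edgeR). Without NTG 2 the values were 0.16 for Poldip2 and −0.20 for Sh3pxd2b.

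Upstream of the enzyme, 13 of 14 Rac exchange factors, kinases and related regulators were lower in TG by the fit and 0 were called. The median log2 fold change was −0.24, or −0.088 without NTG 2 and −0.37 without NTG 1. Tiam1, a Rac exchange factor, was the only one with an unadjusted p under 0.05, at 7.65 to 10.2 CPM in TG and 10.2 to 18.6 CPM in NTG (log2 fold change −0.73 ± 0.23, edgeR adjusted p = 0.204). Prkca, a protein kinase C, had −0.27 (adjusted p = 0.276, edgeR). All 13 phagocyte receptors and adaptors, which carry signals that start or restrain phagocyte responses, were lower by the fit, with a median of −0.63, or −0.22 without NTG 2. edgeR called 0 of them and DESeq2 called 2, Cd14 and Fcgr2b, beside 2.4% of all genes called lower by DESeq2. Cd14, a co-receptor for bacterial lipopolysaccharide, was at 25.9 to 46.4 CPM in TG and 52.4 to 81.9 CPM in NTG (log2 fold change −0.98, adjusted p = 0.196 with edgeR and 0.00811 with DESeq2), with 81.9 CPM in NTG 2 and 68.3 in NTG 1. The inhibitory Fc receptor Fcgr2b had −1.004, or −0.47 without NTG 2.

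Of 6 transcription factors of myeloid cells, 4 were lower in TG by the fit and 2 were higher. Runx1 had a log2 fold change of −1.36 and Irf1, an interferon regulatory factor, one of 0.97 (adjusted p = 0.210 and 0.214 with edgeR, 0.0182 and 0.0378 with DESeq2). Runx1 was at 42.5 CPM in NTG 2 and at 15.7 and 20.2 CPM in NTG 1 and NTG 3, and had −0.82 without NTG 2. Irf1 was thus higher in TG, at 42.2 to 71.5 CPM against 19.7 to 39.1 CPM, the opposite direction to the phagocyte subunits. Of 10 enzymes that remove superoxide and peroxide, 5 were lower and 5 higher by the fit, with 0 called by edgeR. The secreted ones were the lowest, Gpx3 at 324 ± 19.4 CPM in TG and 630 ± 70.8 CPM in NTG (SD, n = 3, log2 fold change −0.96) and Sod3 at 80.9 ± 10.5 and 177 ± 64.8 CPM (SD, n = 3, log2 fold change −1.13). Both had an adjusted p of 0.196 with edgeR, and 1.05e-09 and 0.00265 with DESeq2.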

How the data were processed

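The deposited values are raw counts per gene, 1 column per heart, which the authors made from cleaned and mapped reads with featureCounts after predicting transcripts with StringTie. The submitters' processing notes name HISAT2 and, although the gene identifiers are of mouse, the human build GRCh38. How strand and multi-mapping reads were treated is not given in the sources used here. Coordinates matched GENCODE M21 (GRCm38) exactly for 98.3% of the 54409 genes found in both, the 7 subunits among them, so GRCm38 positions are printed.

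The analysis used edgeR 4.0.16 under R 4.3.3 (TMM, filterByExpr by group, robust quasi-likelihood test, Benjamini-Hochberg over 14774 genes), with DESeq2 1.42.0 and limma 3.58.1 (voom) as alternatives, after each had been tested on simulated data. All 6 libraries and no covariate were used, since the labels give no batch. The standard error of a fold change was taken from the test statistic, and log2 CPM for correlations had a prior count of 2. Depth was 14863568 to 17581220 counts per library, and intervals or limits on counts cover counting error only. All pairs of libraries differed beyond sampling noise (chi-square per gene 15.5 or more), so each was counted as its own sample, and 0 columns were unmatched. Each heart is 1 library, so the p-values of the fits set the difference of the groups against variation between hearts. That variation was estimated for each gene with information from all genes.

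The subunits, the gene and marker lists, the tests and the motifs were chosen with earlier results of these data known. Named were the 7 subunits, Hint2, 2 genes per list, by lowest unadjusted p (0 were called), and the 3 genes most correlated with Nox4 and with Cybb. Nox1, Nox3, the untested neutrophil markers, Vwf, Emcn, Cnn1, the collagens, Pdgfra, Lum, Dpt, Tcf21 and the genes that overlap a subunit were named outside this rule, after their values were seen. The alternatives were 3 scalings, 2 low-count filters, robust = FALSE, 3 other tests, a replicate block and each library left out in turn. DESeq2 with each library left out was added after the values had been seen.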

Additional observations from a re-analysis of the deposited data

How the results depend on the processing

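Genes called higher and lower numbered 0 and 0 with edgeR's quasi-likelihood test, 116 and 116 with no low-count filter, 228 and 355 with DESeq2, 206 and 339 with the likelihood-ratio test, and 84 and 147 with the replicate block. They were 0 with RLE, upper quartile or library size scaling, with a minimum of 10 counts in all libraries, with robust = FALSE and with limma-voom. Nox4 was the 1 subunit called with DESeq2 (log2 fold change −2.07, adjusted p = 6.05e-05), with the likelihood-ratio test (−2.07, adjusted p = 0.000679) and with the replicate block (−2.05, adjusted p = 0.0497). Over all alternatives its adjusted p ran from 3.41e-09 to 0.425, and its direction stayed the same. With library size scaling Cyba was −0.051, while the median of all genes moved to −0.093, and Rac1 in TG averaged 237 CPM. Without 1 library at a time, with edgeR and DESeq2, 0 to 896 genes were called higher, 0 to 877 lower and 0 to 2 subunits. The log2 fold change then ran from −2.42 to −1.75 for Nox4, −0.87 to −0.018 for Cybb, −0.98 to −0.26 for Ncf1, −0.88 to −0.015 for Ncf4, −0.75 to 0.0058 for Rac2, −0.18 to −0.11 for Rac1 and −0.079 to 0.20 for Cyba. With edgeR, 404 genes were called higher and 432 lower without NTG 1, and 4 or fewer in each direction without any other library. The cause was not tested. The deviations of TG and NTG libraries from their group means had r of 0.081, 0.17 and −0.25 for the same numbers 1 to 3. For unlike numbers r ran from −0.25 to 0.17. With 3 libraries per group these values cannot show whether the numbers pair the hearts. The lowest count of a subunit in any library was 43, for Ncf4 in TG 1, and Nox4 had 48 in TG 3.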

Other observations

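Of 8 endothelial markers, 4 were higher and 4 lower in TG by the fit, with a median log2 fold change of 0.015 (−0.00062 without NTG 2 and −0.015 without NTG 1), and the sums were 1743 to 2030 CPM in NTG and 1799 to 1972 CPM in TG. Kdr, the receptor for vascular endothelial growth factor, and Egfl7 had log2 fold changes of 0.37 and 0.30 (adjusted p = 0.217 and 0.204, edgeR), and for both every TG heart lay above every NTG heart. Vwf, von Willebrand factor, had the largest log2 fold change in size of the 8, with the opposite sign, at −0.81 (adjusted p = 0.221, edgeR), or −0.48 without NTG 2, and Emcn had −0.19, with every TG heart below every NTG heart. Of all genes tested, 11.2% had every TG heart above and 12.3% every TG heart below. Smooth muscle and pericyte markers, 4 of 6 higher in TG, had a median of 0.23. Beside 1.54% of all genes called higher, DESeq2 called 2 of these 6 markers, Myh11 and Cnn1 (named after its values were seen), both higher, while edgeR called 0. Their contractile genes Acta2 and Myh11 were at 116 ± 3.48 and 85.2 ± 7.27 CPM in TG and at 86.9 ± 2.93 and 52.4 ± 12.03 CPM in NTG (SD, n = 3). The adjusted p of both was 0.196 with edgeR. Lymphocyte markers were scarce, at 4.51 to 10.99 CPM in NTG and 6.42 to 13.8 CPM in TG summed over 10 genes. Of the 6 that were tested, 5 were higher in TG by the fit, among them Cd8a and Nkg7 at 1.78 and 1.48 (adjusted p = 0.231 and 0.361, edgeR), with 2.22 for Nkg7 without NTG 1, and none was highest in NTG 2, the heart with the highest level of the phagocyte subunits.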
